A study of Sus scrofa domesticus with 4 samples.

Results

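The cytosolic ribosomal protein genes encode the proteins that, together with ribosomal RNA, form the ribosome of the cytoplasm. Their expression was compared between slices of pig endometrium cultured with and without orexin A (OXA), a neuropeptide hormone. They were chosen by name: probes that are not controls, whose RefSeq accession leads to a pig gene symbol of RPL or RPS with a number and at most 1 end letter, or to RPLP0, RPLP1, RPLP2 or RPSA. This gave 34 genes of the 3029 genes named on the array, 18 of the large and 16 of the small subunit, while the reference gene table holds 79 symbols that meet the rule. Each gene is represented by its brightest probe. The 34 genes had 179 probes, of which 177 were tested and 2 (1 of RPL5 and 1 of RPSA) were lost to outlier spots, so that every gene kept a value.

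The endometrium, the lining of the uterus, came from 4 gilts (Large White x Polish Landrace) aged 7 to 8 months and killed on days 15 to 16 of pregnancy. After 2 h in medium alone, slices spent 24 h either with OXA (10 nM in the sample labels, 10 µM in the design text) or with nothing added, in duplicate cultures. Each of 4 two-colour arrays paired 1 OXA RNA with 1 control RNA, so the groups are the 4 OXA and the 4 control RNAs, read as a log2 ratio of OXA over control with n = 4 arrays. By the labels of the single samples OXA carried the dye Cy5 on arrays 1 and 3 and Cy3 on arrays 2 and 4. The labelling protocol words it as Cy5 throughout. Slices are whole tissue, so fewer cells of a type and less RNA per cell cannot be told apart, and nothing in the sources used here ties both RNAs of an array to the same gilt.

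The ribosome translates messenger RNA: its small subunit holds the message and reads the codons, and its large subunit joins the amino acids. Ribosomal protein messages begin with a tract of pyrimidines, which lets mTOR signalling control their translation as a set, so that in many tissues their protein output is set more at translation than by the amount of message. They are among the most abundant messages of most cells, and several of them serve as reference genes in quantitative PCR.

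The ribosomal protein probes were among the brightest on the arrays. Their median brightness over both dyes was 16.75 on the log2 scale, against 11.03 for the 2407 named genes tested and 10.39 for the 26927 probes tested. Of the 500 brightest probes, 20.8% were probes of these genes. Every reading of their spots was well above background in Cy5, and 99.4% to 100% were in Cy3, with 0 saturated readings. By the scan headers, arrays 2 to 4 shared a slide and a scan day, and array 1, from a different slide, followed 71 days later. The name of array 1's scan, by contrast, carries the slide of arrays 2 to 4, and the header was followed. On array 1 only 31.7% of all probes were well above background in Cy3, against 52.1% to 56.7% on the other arrays. Of 9 listed markers of endometrium, all 5 present by name (among them ESR1 and PGR, the oestrogen and progesterone receptors) had a tested probe.

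No ribosomal protein gene passed a test between OXA and control. None of the 34 genes passed limma's moderated test at an adjusted p of 0.05 (adjusted p = 0.763 at the lowest, Benjamini-Hochberg over all probes), as for all probes, of which 0% were called, and 0 of the 34 had an unadjusted p under 0.05, against 1.86% of all probes and 3.32% of named genes. An intensity trend with robust variance gave 0 at either threshold too. The median over the 34 genes was -0.10, against 0.02 over all probes and -0.02 over all named genes, and 25 of 34 were below 0, where 43% of all probes and 57.5% of named genes were. Over all 177 of their probes the median was -0.02, with 100 below 0. This direction depended on the normalization: with median centring of each array in place of loess, 34 of 34 genes were above 0 with a median of 0.24, against 0.14 over all probes. It depended on single arrays as well: the median was 0.00 with 18 genes above 0 without array 2, -0.04 with 14 without array 3, -0.17 with 4 without array 1, and -0.26 with 7 without array 4.

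The 4 arrays set the limits of what could be seen. The standard errors ran from 0.07 to 0.23. All 34 of the 95% intervals of the fit held 0, and together they reached from -0.73 to 1.12, which is from a fold of 0.602 to a fold of 2.17. The narrowest was that of RPL11, from -0.26 to 0.11, and the widest that of RPL7, from -0.16 to 1.12. On simulated data with the spread of these arrays, 49% of probes changed by a fold of 2 passed the adjusted test. Of those changed by a fold of 4, 73% passed. An unadjusted p under 0.05 came up in 6.13% of the probes left unchanged, against 1.86% of all probes in the real data. The changed probes were drawn from all tested probes, whose median standard error was 0.08, against 0.13 for the 34 genes. The simulated shares therefore need not hold for these genes.

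**Figure D1:**
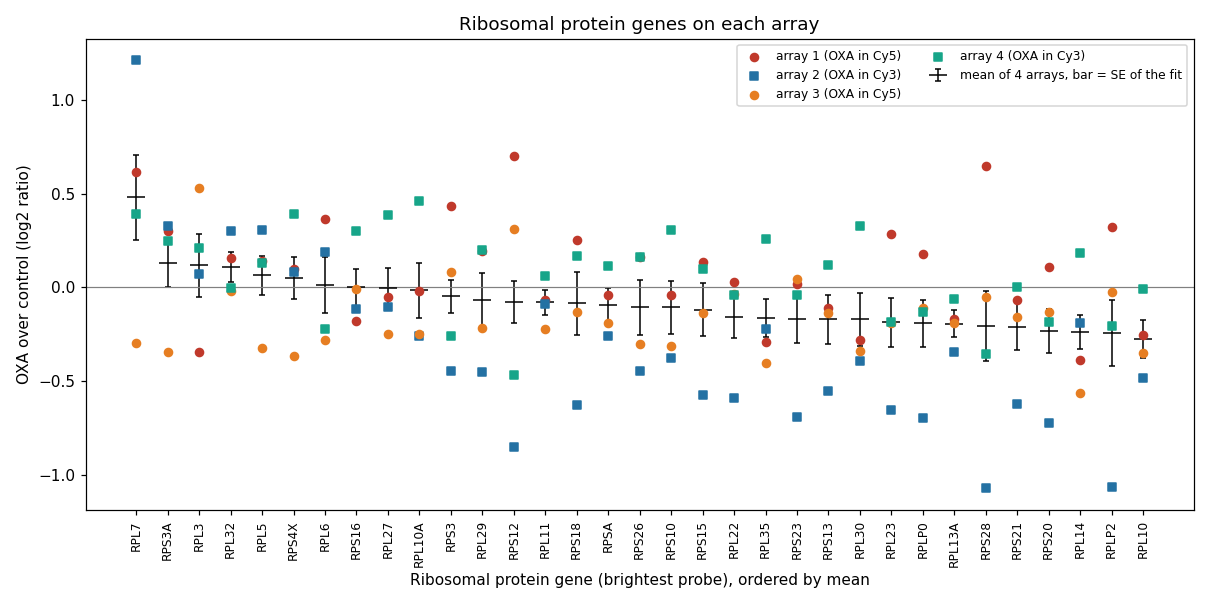
Log2 ratio of OXA over control (vertical axis) for the brightest probe of each of 33 ribosomal protein genes (horizontal axis, ordered by mean) on each array: circles are arrays with OXA in Cy5, squares arrays with OXA in Cy3, and the black dash is the mean of 4 arrays with the standard error of the fit. Most of the lowest values are those of array 2, down to -1.07 for RPS28. Values are after loess, and with median centring all means were above 0.

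The spread between arrays was larger than the shift of the genes. The median over the 34 genes was 0.10 on array 1, -0.38 on array 2, -0.19 on array 3 and 0.12 on array 4, so the arrays did not share a direction, and the SD of these 4 medians was 0.24. On array 1, 20 of 34 genes were above 0, on array 2 there were 8, on array 3 there were 4 and on array 4 there were 21. Of the 2407 named genes tested, 1165, 667, 1530 and 1212 were above 0 on arrays 1 to 4, so few were on array 2 there too. RPL14 was the lowest gene on arrays 1 and 3 (-0.39 and -0.56), and RPS12 was the highest on array 1 and the lowest on array 4 (0.70 and -0.47). Array 2 spread the genes most, with an SD over the 34 genes of 0.45, from -1.07 for RPS28 to 1.21 for RPL7, against 0.33 over all named genes on that array. On array 1 the order was the other way, with 0.27 for the ribosomal protein genes and 0.49 for all named genes.

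RPL10, a large subunit protein that joins last, in the cytoplasm, and sits near the peptidyl transferase centre, had the lowest mean. Its ratios were -0.25, -0.48, -0.35 and -0.01 on arrays 1 to 4, a mean of -0.27 ± 0.20 (SD, n = 4), a fold of 0.828 (unadjusted p = 0.0565 and adjusted p = 0.763 by limma). Its brightest probe was lower with OXA on all 4 arrays, and the mean was -0.15 without array 2 and -0.39 without array 4. The 5 probes of RPL10 all had means below 0, from -0.43 to -0.21. On array 4, however, they ran from -0.04 to 0.14 with a median of 0.05. RPL13A, a large subunit protein also known as a translational silencer of inflammatory messages, was -0.17, -0.34, -0.19 and -0.06, a mean of -0.19 ± 0.12 (SD, n = 4). Without array 2 it was -0.12, and both of its probes gave nearly the same mean (-0.19 and -0.18). RPL10 and RPL13A were the 2 of 34 genes below 0 on 4 of 4 arrays, a pattern that 4.26% of all probes and 5.86% of named genes showed, and no ribosomal protein gene was above 0 on all 4, which 7.64% of all probes and 2.83% of named genes were. With median centring RPL10 and RPL13A stood above 0, at 0.08 and 0.14, where the median of all probes was 0.14. With no dye coefficient in the fit both had an unadjusted p under 0.05 (adjusted p = 0.712 at the lowest, by limma). Of all probes, 1.65% had one in that fit.

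In raw fluorescence the dyes set the scale of these values. The brightest RPL10 probe read 181409 for OXA and 92203 for control on array 1, with OXA in Cy5. With OXA in Cy3 on array 2, it read 52229.5 for OXA and 319349 for control. On array 3 it read 296536 for OXA and 47358 for control, and on array 4 it read 53056 and 201111. Cy5 was the brighter dye on every array. After loess the log2 signals of OXA and control were 16.86 and 17.11 on array 1, 16.75 and 17.23 on array 2, 16.67 and 17.03 on array 3, and 16.65 and 16.66 on array 4.

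RPL7, a large subunit protein that binds RNA, had the highest mean. Its ratios were 0.62, 1.21, -0.30 and 0.39 on arrays 1 to 4, a mean of 0.48 ± 0.62 (SD, n = 4), a fold of 1.39 (unadjusted p = 0.103 and adjusted p = 0.763 by limma). Array 3 went the other way, and without array 2 the mean was 0.28, without array 1 it was 0.25, and with median centring it was 0.83 (unadjusted p = 0.0243 and adjusted p = 0.275 by limma). On array 2 all 14 of its probes lay between 0.74 and 1.48, and on array 3 all 14 lay between -0.30 and -0.06. On array 1, by contrast, its probes ran from -0.90 to 0.62, so that array gave the gene no single direction. The gene RPL7L1, a relative of RPL7 that acts in ribosome assembly and lies outside the rule, was -0.20, 0.57, -0.17 and 0.45, a mean of 0.16 (SE 0.06; unadjusted p = 0.0490 and adjusted p = 0.763 by limma). It was below 0 on both arrays with OXA in Cy5 and above 0 on both with OXA in Cy3, and its dye coefficient of -0.35 (unadjusted p = 0.00412 by limma) was larger than its OXA coefficient.

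Among the other large subunit genes above 0, RPL3, a protein at the peptidyl transferase centre, was -0.34, 0.07, 0.53 and 0.21, and its mean was 0.12 ± 0.36 (SD, n = 4) from a single probe. Without array 1 it was 0.34 and without array 3 it was -0.10. RPL32 was 0.16 and 0.30 on arrays 1 and 2 and -0.02 and -0.00 on arrays 3 and 4, with a mean of 0.11 (SE 0.08), or 0.03 without array 2. Its 7 probes ran from -0.32 to 0.11 with a median of -0.07, so its brightest probe stood highest of them, and its mean over probes was -0.07. RPL6 shows the reverse: its brightest probe was 0.37, 0.19, -0.28 and -0.22, with a mean of 0.01, while the 13 probes had a median of 0.22 and were all above 0. On array 2 the RPL6 probes had a median of 0.64.

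RPL5 and RPL11 form, with 5S ribosomal RNA, a particle that enters the large subunit during assembly, and both bind MDM2, the ubiquitin ligase of p53, when assembly is disturbed. RPL5 was 0.14, 0.31, -0.32 and 0.13, a mean of 0.07 ± 0.27 (SD, n = 4), and 16 of its 17 probes had means above 0. RPL11 was -0.07, -0.09, -0.22 and 0.06, a mean of -0.08 ± 0.12 (SD, n = 4), but its other probes gave 0.10 and 0.13. RPL23, a further protein that binds MDM2, was 0.28, -0.65, -0.19 and -0.19, a mean of -0.19 ± 0.38 (SD, n = 4), which was -0.07 without array 2 or array 3 and -0.30 without array 1 or array 4. Values of RPL5, RPL11 and RPL23 lay on both sides of 0 among the arrays, and none of these genes had an unadjusted p under 0.05. None of the 5 p53 and MDM2 response genes tested (median -0.05, 1 of 5 above 0) had one either.

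The stalk of the large subunit, on which elongation factors dock, is built by RPLP0 and the acidic proteins RPLP1 and RPLP2. RPLP2 was 0.32, -1.06, -0.02 and -0.20, a mean of -0.24 ± 0.59 (SD, n = 4), from 1 probe. RPLP0 was 0.18, -0.70, -0.11 and -0.13, a mean of -0.19 ± 0.37 (SD, n = 4). Both were highest on array 1 and lowest on array 2, and without array 2 RPLP2 was -0.03 and RPLP0 -0.05. The 13 probes of RPLP0 ran from -0.19 to 0.01 with a median of -0.05, with the brightest probe as the lowest. With median centring RPLP2 and RPLP0 were 0.11 and 0.15.

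RPL14, a large subunit protein, was -0.39, -0.19, -0.56 and 0.19, a mean of -0.24 ± 0.32 (SD, n = 4; unadjusted p = 0.0608 by limma over n = 4 arrays). It was below 0 on arrays 1 to 3, at -0.14 without array 2, and its 5 probes all had means below 0. RPL35, which lies by the exit of the peptide tunnel, was -0.29, -0.22, -0.40 and 0.26, with the same single array above 0, and a mean of -0.16 ± 0.29 (SD, n = 4), which was -0.04 without array 2 and -0.28 without array 4. RPL30 was also below 0 on arrays 1 to 3 (-0.28, -0.39 and -0.34) and above it on array 4 (0.33). RPL22, an RNA-binding protein that the ribosome can do without, was 0.03, -0.59, -0.03 and -0.04, so its mean of -0.16 rests on array 2. Without that array it was -0.02. The remaining large subunit genes, RPL10A, RPL27 and RPL29, had means from -0.07 to 0.00.

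In the small subunit, RPS3A had the highest mean, at 0.30, 0.33, -0.34 and 0.25, a mean of 0.13 ± 0.32 (SD, n = 4). Array 3 alone was below 0, and without it the mean was 0.29. RPS4X, the X-linked gene of its protein, was 0.10, 0.08, -0.37 and 0.39, with a mean of 0.05 and array 3 again alone below 0. In both genes OXA and control differed by less than the arrays did.

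At the lower end of the small subunit, RPS20, a protein of the subunit's head, was 0.11, -0.72, -0.13 and -0.19, a mean of -0.23 ± 0.35 (SD, n = 4). Its 7 probes all had means below 0, from -0.51 to -0.20, and on array 2 all 7 lay between -0.88 and -0.65. RPS21 was -0.06 and -0.62 on arrays 1 and 2, -0.16 on array 3 and close to 0 on array 4, with a mean of -0.21. RPS28, which lies at the channel where messenger RNA leaves, was 0.65, -1.07, -0.05 and -0.35, a mean of -0.21 ± 0.71 (SD, n = 4). RPS23, a protein of the decoding centre, was 0.02, -0.69, 0.05 and -0.04, a mean of -0.17. These 4 genes were lowest on array 2, and without it their means were between -0.10 and 0.00. With median centring they were from 0.11 to 0.16.

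The middle of the small subunit held RPS10, RPS15, RPS16, RPS26 and RPSA. RPS10 was -0.04, -0.38, -0.31 and 0.31, with 6 of 6 probes below 0 in the mean. RPSA, also known as the laminin receptor, was -0.04, -0.26, -0.19 and 0.11, with 2 of 5 probes above 0. RPS15 had a mean of -0.12, RPS26 of -0.10 and RPSA of -0.09, RPS16 lay at 0 within 0.01, and all 5 were above 0 on array 4 and below it on arrays 2 and 3.

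The brightest probes of RPS12 and RPS3 split by the dye. RPS12, a protein of the small subunit's beak, was 0.70 and 0.31 on arrays 1 and 3 (OXA in Cy5) but -0.85 and -0.47 on arrays 2 and 4 (OXA in Cy3). As Cy5 over Cy3 it was thus above 0 on all 4 arrays, with a dye coefficient of 0.58 (unadjusted p = 0.00687 by limma), against an OXA coefficient of -0.08. RPS3, which lies where messenger RNA enters and also takes part in DNA repair, was 0.43 and 0.08 against -0.45 and -0.26, with a dye coefficient of 0.31 (unadjusted p = 0.0271 by limma). The brightest probe of RPS23 split by dye in the same way. Thus 3 of the 34 genes had 1 sign of Cy5 over Cy3 on 4 of 4 arrays, against 3848 of 26927 probes. Over all tested probes of a gene, dye coefficients ran from -0.30 to 0.31 in RPS3 and from -0.21 to 0.20 in RPS23. In RPS12 they ran from 0.05 to 0.58. RPS12 and RPS3 were the 2 of 34 genes with an unadjusted p under 0.05 for the dye, where 3.87% of all probes and 8.31% of named genes had one. Over all 177 probes of the genes, 23 had such a p for the dye, 6 toward Cy5 and 17 toward Cy3, with a median dye coefficient of -0.11. No gene passed at an adjusted p of 0.05 for the dye (adjusted p = 0.932 at the lowest), as for all probes, of which 0% did.

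Over the 34 genes the dye coefficients spread more than the OXA coefficients, with SDs of 0.21 and 0.15, and the dye coefficient was the larger of the pair in 17 genes. Over all named genes the SDs were 0.19 and 0.18. Read as Cy5 over Cy3, the 34 values correlated between arrays with Pearson's r of 0.57 for arrays 2 and 4, 0.48 for arrays 1 and 4, 0.46 for arrays 3 and 4, 0.29 for arrays 2 and 3, 0.21 for arrays 1 and 3, and 0.03 for arrays 1 and 2. Read as OXA over control, the 4 pairs of opposite dye therefore had r from -0.48 to -0.03. These are correlations across 34 genes, which share arrays, probes' dye preferences and brightness and are not independent replicates, and they describe these arrays only. Over all probes the r of OXA over control was from -0.29 to 0.42.

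**Figure D2:**
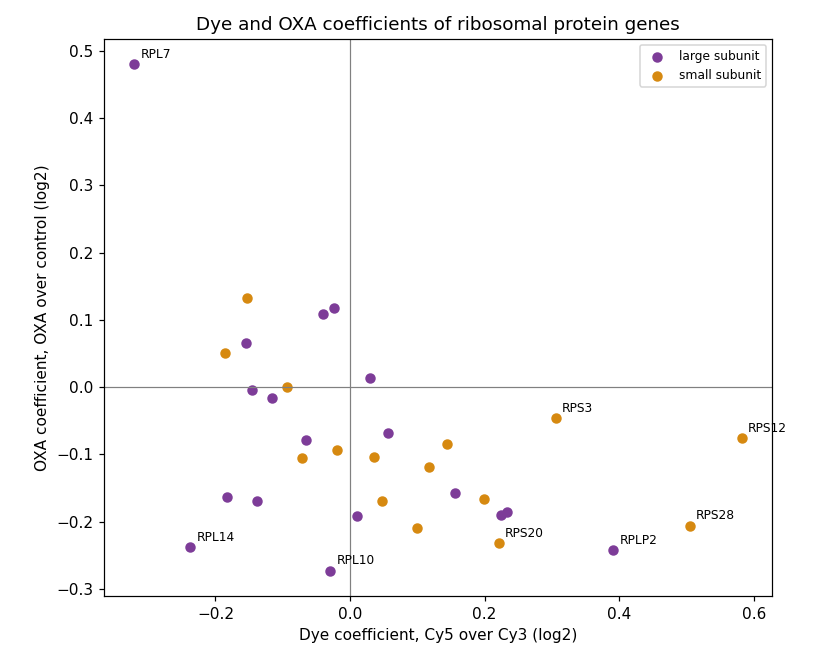
OXA coefficient (vertical axis, log2 OXA over control) against dye coefficient (horizontal axis, log2 Cy5 over Cy3) of the same limma fit for 33 ribosomal protein genes, with large subunit genes in purple and small subunit genes in orange. RPS12, RPS28 and RPLP2 lie far to the right, with dye coefficients of 0.58, 0.51 and 0.39, and RPL7 lies alone at the top left.

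The subunits were close to each other in their medians. The median OXA ratio was -0.12 over the 18 large subunit genes (5 above 0) and -0.10 over the 16 small subunit genes (4 above 0). On the single arrays the small and large subunit medians were 0.12 and 0.01 on array 1, -0.50 and -0.24 on array 2, -0.14 and -0.23 on array 3, and 0.12 and 0.10 on array 4. The difference was not tested. The small subunit genes had OXA means between -0.23 and 0.13, and the large subunit genes between -0.27 and 0.48.

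Since 29 of the 34 genes had more than 1 tested probe, the values could be set against other probes for the same gene. In 15 genes all probes had means below 0, in 1 (RPL6) all were above, and in 13 they lay on both sides. The brightest probe and the median over probes differed in sign in 4 genes, RPL32, RPS16, RPL10A and RPL11. Between probes of 1 gene the median SD of the OXA mean was 0.07, less than the median standard error of 0.13. The largest range was that of RPL7, 0.60. Taking the mean over probes as a gene's value gave a median of -0.10 with 8 of 34 genes above 0. At an unadjusted p under 0.05 there were 3 of 177 probes, a dimmer probe each of RPL10 (-0.43), RPL14 (-0.30) and RPS20 (-0.51), all below 0 after loess, a share close to the 1.86% of all probes. Probes of ribosomal protein genes can also bind messages of their many processed pseudogenes, and whether these do is not given in the files.

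**Figure D3:**
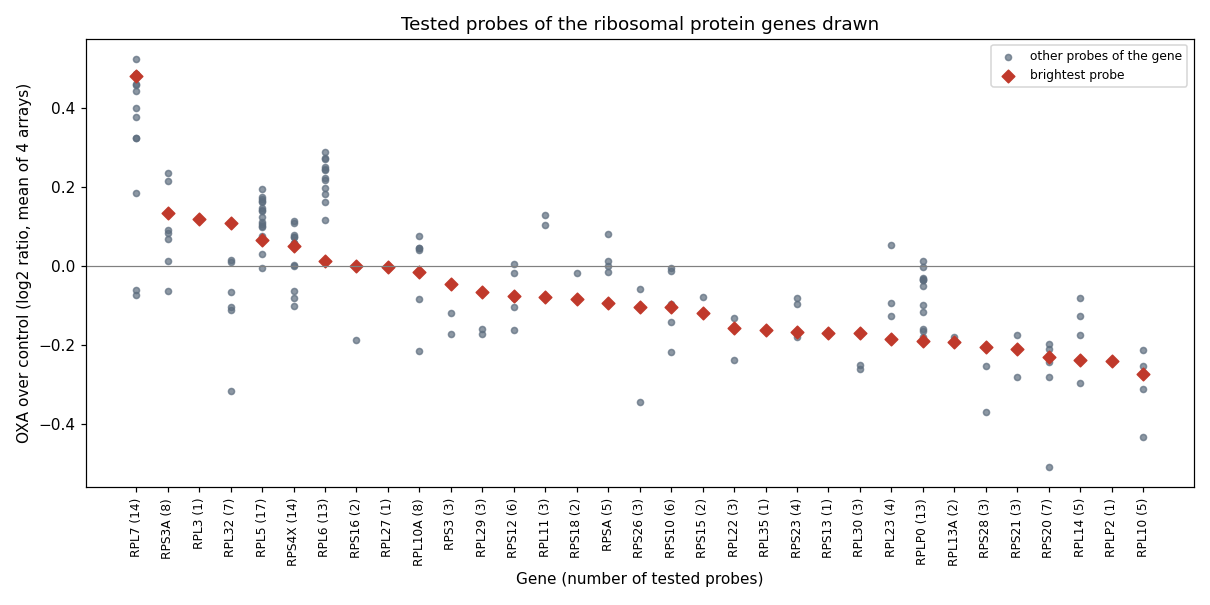
Mean log2 ratio of OXA over control (vertical axis) for each of 173 tested probes, by gene (horizontal axis, with the number of probes). Red diamonds are the brightest probe and grey points the others. The 13 probes of RPL6 are all above 0, and the 7 of RPS20 and 5 of RPL10 are all below 0 under loess.

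How well the probes of a gene agreed depended on the array. On array 1 the pooled SD between probes of 1 gene was 0.32, more than the SD of 0.26 between the means of the 29 genes. On array 2 the order was reversed, with 0.18 between probes and 0.43 between genes. On arrays 3 and 4 the SDs between probes were 0.18 and 0.14, and those between genes 0.14 and 0.17. The spread of genes on array 2 was thus seen by several probes per gene: medians over probes were 1.26 for RPL7, 0.64 for RPL6, 0.37 for RPL5 and 0.34 for RPS3A, but -1.07 for RPS28, -0.71 for RPS20, -0.62 for RPS21 and -0.51 for RPS23. On array 1 probes of RPL32 ran from -0.99 to 0.16, of RPS20 from -0.93 to 0.33 and of RPLP0 from -0.69 to 0.42.

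Brightness went along with part of this. The 88 brighter of the 177 probes, above 16.22, had a median of 0.10 on array 1 and the 89 dimmer ones -0.13. On array 2 the medians were -0.34 and 0.07, on array 3 -0.22 and -0.12, and on array 4 0.14 and 0.25. Read as Cy5 over Cy3, the correlation with brightness over the 177 probes was r = 0.37, 0.24, -0.50 and 0.18 on arrays 1 to 4, which describes probes that share genes and arrays. Among the 200 brightest probes, 169 were not named as probes of the 34 genes. Their median ratio was 0.98 on array 1, -0.20 on array 2, -0.04 on array 3 and -0.19 on array 4. Probes without a gene name among them could also be ribosomal. The part of brightness in the values of the genes was not tested. Fitting the loess curves with the 179 ribosomal probes at weight 0 gave a median of -0.11 with 8 of 34 genes above 0.

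**Figure D4:**
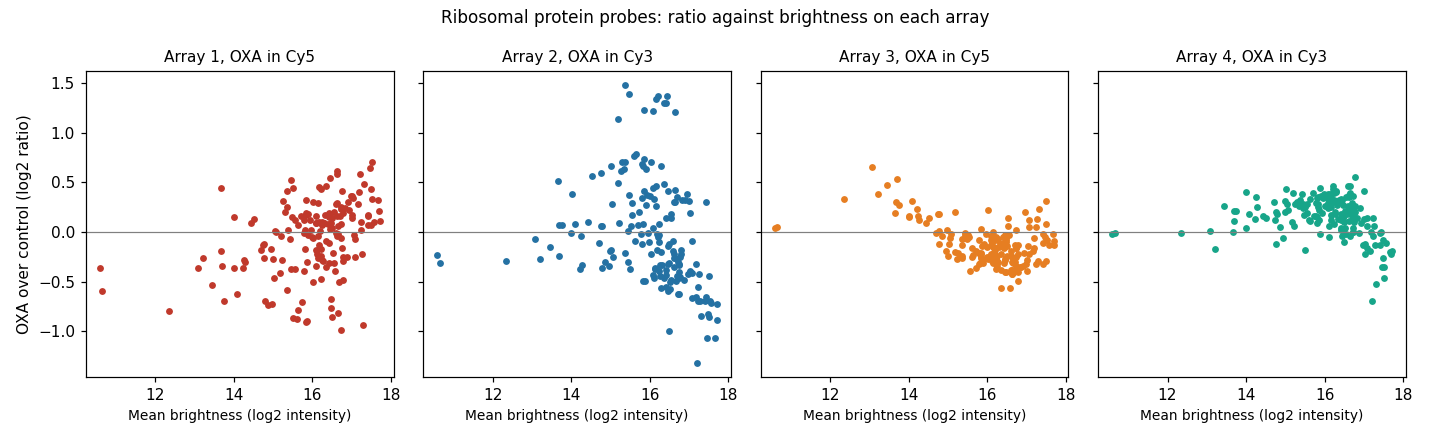
Log2 ratio of OXA over control (vertical axis) against mean brightness over both dyes (horizontal axis, log2 intensity) for 173 ribosomal protein probes, 1 panel per array. The points scatter most on arrays 1 and 2, and on array 2 the brighter probes reach down to -1.32 while those of RPL7 reach 1.48.

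Of the ribosomal protein genes often used as PCR references, 7 were tested, and 1 of 7 was above 0, with a median of -0.17 (0.24 for all 34 genes with median centring, where none was below 0). Besides RPLP0, RPL13A, RPL32 and RPS23, these were RPS13 (-0.11, -0.55, -0.13 and 0.12), RPS18 (0.25, -0.62, -0.13 and 0.17) and RPL27 (-0.05, -0.10, -0.25 and 0.39). Their SDs over the 4 arrays ran from 0.12 for RPL13A to 0.40 for RPS18. The other reference genes tested, 7 of 12 listed, had a median of -0.10, with 2 above 0 and 1, B2M, at an unadjusted p under 0.05.

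Other genes of the translation machinery gave no call either, with 0 past an adjusted p of 0.05 by limma in every list, and 3.32% of named genes past an unadjusted p of 0.05. The mitochondrial ribosome, which translates the respiratory chain's own messages inside mitochondria, had 7 genes tested, 3 above 0, with a median of -0.06 and array medians of -0.24, -0.22, 0.10 and 0.01. Its lowest p was that of MRPL24 (-0.19, SE 0.11). Of 3 tested genes outside the ribosome whose messages carry the same pyrimidine tract, all were below 0. TPT1, a translationally controlled tumour protein, was -0.33, -1.01, -0.15 and -0.28, a mean of -0.44 (SE 0.14; unadjusted p = 0.0391 and adjusted p = 0.763 by limma). EEF1A1, the elongation factor that brings aminoacyl-tRNA to the ribosome, was -0.43, -0.34, 0.01 and -0.17, and HNRNPA1 had a mean of -0.01.

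Among 10 genes with EIF symbols, which include the kinase EIF2AK2 and the inhibitor EIF4EBP2 beside initiation factors, 6 were above 0 with a median of 0.08 and 0 had an unadjusted p under 0.05. EIF4G1, the scaffold of the cap-binding complex, ran from -1.21 on array 1 to 0.08 on array 4. Of 10 ribosome biogenesis genes 6 were above 0 with a median of 0.01, and 1, the nucleolar NOP56, had an unadjusted p under 0.05 (0.43, 4 of 4 arrays above 0). Of 7 genes of mTOR and translation control 3 were above 0 with a median of -0.05, and 2, the stress factor ATF4 and the mTOR inhibitor DDIT4, had an unadjusted p under 0.05, at -0.41 and -1.13. RACK1, a scaffold bound to the small subunit, was 0.05. Of the 2 tested genes in its list 1 was above 0, and their median was -0.09. RPL26L1 and RPL36AL, paralogs outside the rule, were 0.04 and 0.03.

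Cell type markers differed between arrays too. Of 12 epithelial markers, 6 were tested, with array medians of -0.84, -0.34, -0.00 and 0.53 and a summed linear signal of 85521 to 111683 in OXA and 70266 to 180038 in control RNAs. Of 9 stromal fibroblast markers, 4 were tested, with medians of 1.45, -0.07, 0.10 and 0.15 and sums of 26869 to 79192 in OXA and 28019 to 57134 in control. Myeloid markers (5 of 8 tested) had medians of 0.58, -0.51, 0.30 and -0.56, and smooth muscle markers (4 of 7 tested) 0.10, -0.84, 0.37 and -0.16, with sums of 9274 to 25024 and 19855 to 29742 in OXA and of 7102 to 26516 and 20394 to 43175 in control. Markers present by name without a tested probe included THY1 of stroma, CD4 of T cells, MS4A1 of B cells, and CDX2 and CYP19A3 of trophoblast. On array 2, where the ribosomal protein median was -0.38, all 9 marker lists had medians below 0, from -0.84 to -0.04. Most named genes were below 0 on that array as well (1740 of 2407, median -0.08). The myeloid and smooth muscle medians split by dye, above 0 on arrays 1 and 3 and below 0 on arrays 2 and 4. So did those of T and NK markers (7 of 10 tested), at 0.09, -0.16, 0.18 and -0.13. The part of any marker list in the ribosomal protein values was not tested.

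**Figure D5:**
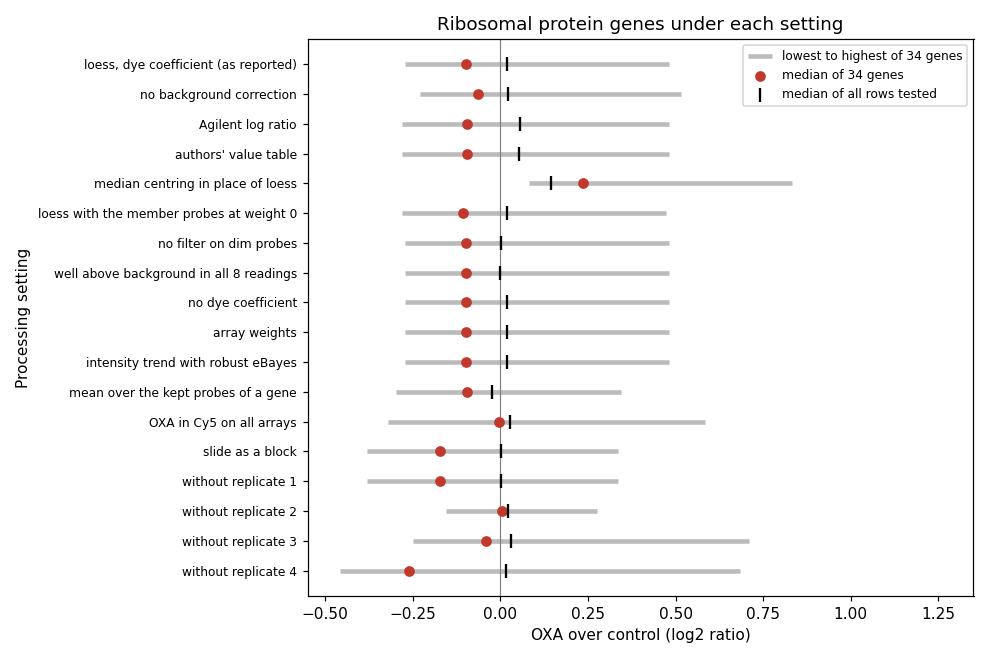
Median (red point) and range (grey bar) of the OXA log2 ratio (horizontal axis) over the 34 ribosomal protein genes under each processing setting (vertical axis), with the median of all probes tested (of genes for the mean over probes) as a black mark. The median lies between -0.26 without array 4 and 0.24 with median centring, the one setting in which all 34 genes were above 0.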

How the data were processed

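Expression was measured on 4 Agilent two-colour arrays. The authors' scanner files hold median spot and background intensity, processed intensity and a log10 ratio, all written by Feature Extraction (Agilent, version 10.7.3.1) per the file headers, and the deposited value table holds log2 ratios, whose slopes on the scanner ratios (1.06, -1.00, 1.04 and -1.03) gave OXA over control (column medians -0.17, 0.06, -0.06 and 0.09, centring unknown). Median intensities were corrected by normexp (offset 50), normalized by loess within arrays and fitted in limma 3.58.1 (R 4.3.3) with an OXA and a dye coefficient (2 residual degrees of freedom, 3.88 after moderation), adjusted by Benjamini-Hochberg over 26927 of 43603 probes: those well above background in at least 4 of 8 readings, without control or outlier spots. Genes were named through RefSeq accessions, versions removed, looked up in a Sscrofa11.1 gene table (6700 of 7125 probes). The labels speak of 4 separate experiments. The p-values rest on the spread between arrays left after the dye coefficient, moderated over probes. Intervals are for the mean ratio and rest on the same spread, so values of single arrays can lie outside them. Arrays have no counting depth, and their number limits precision. The fit was tested on simulated data. Given array by array are the 8 genes with the highest and the 8 with the lowest OXA coefficient, then 4 by lowest unadjusted p, and others in shorter form; up to 3 genes of each related list are named. Genes named outside that rule were chosen after their values were seen. Members and lists were chosen with earlier results of these data known. Background correction, signal source, normalization, filter, covariates, weights, probes per gene, dye reading, slide and each array were varied. Other probes that carry no RefSeq name were not used here. One of the 34 genes is counted in every total but is not reported on its own here, nor drawn.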

Additional observations from a re-analysis of the deposited data

Results flagged for a closer look

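In 4 of the 34 genes, 1 array lay far from the other 3, by the gap to its nearest neighbour as a share of the gene's range (above Dixon's 95% critical value for 4 arrays). In RPS3A this was array 3, at -0.34 against 0.25 to 0.33 on the others, a share of 0.878. In RPL22 it was array 2, at -0.59 against -0.04 to 0.03, a share of 0.886, and in RPS23 array 2 again, at -0.69 against -0.04 to 0.05, a share of 0.882. In RPL30 it was array 4, at 0.33 against -0.39 to -0.28, a share of 0.842. Chance would mark about 1 in 20 genes in this way if the arrays were alike, but they differ in dye and slide. Genes on the same arrays are also not independent. The share among all named genes is not given here, so 4 of 34 cannot be read as particular to these genes.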

How the results depend on the processing

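No setting called a gene at an adjusted p of 0.05 (0 of 34 under each of 17 alternatives). At an unadjusted p under 0.05 by limma, counted against 0, there was 1 with median centring, where 16.8% of all probes had one. With no filter there was 1 (1.31% of all probes), and with the mean over probes 1 (2.91% of named genes). The slide as a block gave 1 (2.58% of all probes). There were 2 with no dye coefficient (1.65% of all probes) and 2 with OXA in Cy5 on all arrays (3.89%). Leaving out each array gave 0 to 4. Without array 4 there were 4, namely RPLP2, RPL10, RPS21 and RPL7, where 7.65% of all probes had one. Without array 3 there was 1, where 29.8% had one, and without array 1 there was 1, where 2.58% had one. Genes above 0, counted against 9, were 34 with median centring, 17 with OXA in Cy5 on all arrays, 4 with the slide as a block and 4 to 18 when leaving out each array. The median over the genes, -0.10, was 0.24 with median centring and -0.26 to 0.00 when leaving out each array, and its other alternatives stayed within the SD of 0.24 between arrays.

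Median centring, which leaves the tilt of Cy5 over Cy3 with brightness (a median dye coefficient of 1.74 over the genes), turned RPL10 to 0.082, RPLP2 to 0.11, RPL14 to 0.12, RPS20 to 0.11, RPS21 to 0.14, RPS28 to 0.15, RPL13A to 0.14, RPLP0 to 0.15, RPL35 to 0.18, RPL23 to 0.14, RPL22 to 0.18 and RPS23 to 0.16. OXA in Cy5 on all arrays turned RPL7 to -0.32, RPS3A to -0.15, RPL3 to -0.023, RPL32 to -0.040, RPL5 to -0.16, RPS4X to -0.19, RPLP2 to 0.39, RPS20 to 0.22, RPS21 to 0.10, RPS28 to 0.51, RPL13A to 0.011, RPLP0 to 0.22, RPL23 to 0.23, RPL22 to 0.16 and RPS23 to 0.20. The mean over probes turned RPL32 to -0.066. The slide as a block, which equals leaving out array 1, turned RPS3A to -0.029, RPL5 to -0.051, RPS4X to -0.065 and RPL6 to -0.15. When leaving out each array the ranges were -0.029 to 0.29 for RPS3A, -0.051 to 0.18 for RPL5, -0.065 to 0.17 for RPS4X, -0.15 to 0.18 for RPL6 and -0.10 to 0.34 for RPL3. The cause was not tested. OXA and control of an array form 1 ratio, so each fit is within arrays. The fits are thus paired by array. Pairing by gilt is unknown, since the sources used here do not tie both RNAs to the same gilt.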
